A study of Homo sapiens with 24 samples.

Results

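The cytosolic ribosome is built of a large and a small subunit, and each subunit carries its own set of ribosomal proteins on a ribosomal RNA core. The genes of these proteins are expressed strongly in dividing cells, and many of their mRNAs start with a pyrimidine-rich stretch, the terminal oligopyrimidine (TOP) tract, which makes their translation depend on the kinase complex mTORC1. Several ribosomal protein genes also carry small nucleolar RNAs (snoRNAs), guides of ribosomal RNA modification, within their introns. The 85 genes described here are the protein-coding rows whose symbols follow the nomenclature of cytosolic ribosomal proteins (RPL and RPS with a number and, where present, a suffix A, X, L, AL or L1, together with RPLP0 to RPLP2 and RPSA). They are 85 of 60232 genes in the table, 53 of the large and 32 of the small subunit, and all 85 passed the filter on low counts. FAU, which encodes a fusion that holds a ribosomal protein, has another form of symbol and was kept in a separate list.

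RNA was sequenced from 22Rv1, a human prostate carcinoma line in wide use, in 3 groups of 3 libraries. The groups were vehicle (DMSO), KB02 at 200 µM and KB05 at 200 µM. The labels give both compounds by code name alone. According to the series text, cells were exposed to either for 1 h and then left for 2 h without it, with 3 h as the labelled time. All groups are the same cell line, so the data speak of that line alone, and p-values measure the spread between cultures described as biological triplicates. The series lists 15 further samples at 8 h, which were not analysed here.

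The libraries held between 15507100 and 21900700 estimated counts. Of the ribosomal protein genes, 81 had at least 1000 counts in every library and 2, RPL3L and RPL10L, fell under 100 in some. The 11 luminal prostate markers summed to 2654 to 3526 CPM (counts scaled to an equal effective library size, the TMM-normalised CPM of the edgeR package). The 12 markers of blood, stromal and endothelial cells summed to 33.2 to 53.8 CPM. Among them COL1A1 lay at 13.2 to 27.5 CPM and PTPRC at 6.84 to 18.6 CPM, while CDH5 was at 0 in all 9 libraries. Genes of the mitochondrial genome took 16.8% to 18.7% of counts in DMSO, 14.9% to 16.2% in KB02 and 13.5% to 14.8% in KB05. Their part in the results below was not tested.

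KB02 replicate 1 stood apart from the other libraries in the ribosomal protein genes. Its short members were low against the mean of KB02 replicates 2 and 3: RPS29 by -0.96, RPL38 by -0.81 and RPS21 by -0.65 on the log2 scale. The 11 members with a coding sequence under 300 bases had a median difference of -0.50, while 204 other protein-coding genes of that length had -0.11. Across 83 members the difference rose with coding length (Spearman rho 0.74, a description over genes of the same libraries, with no p), against 0.15 over 9047 other coding genes. For KB02 replicates 2 and 3, each against the mean of the other KB02 libraries, rho over the members was -0.44 and -0.63. Both of these means hold replicate 1. Replicate 2 against replicate 3 alone differed by -0.32 in RPL35 to 0.24 in RPS3A. Pseudogenes of ribosomal protein genes held 0.535% of the members' counts in KB02 replicate 1 and 0.917% to 1.03% in the other 8 libraries. Results that rest on KB02 replicate 1 are therefore given with it and without it.

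**Figure D1:**
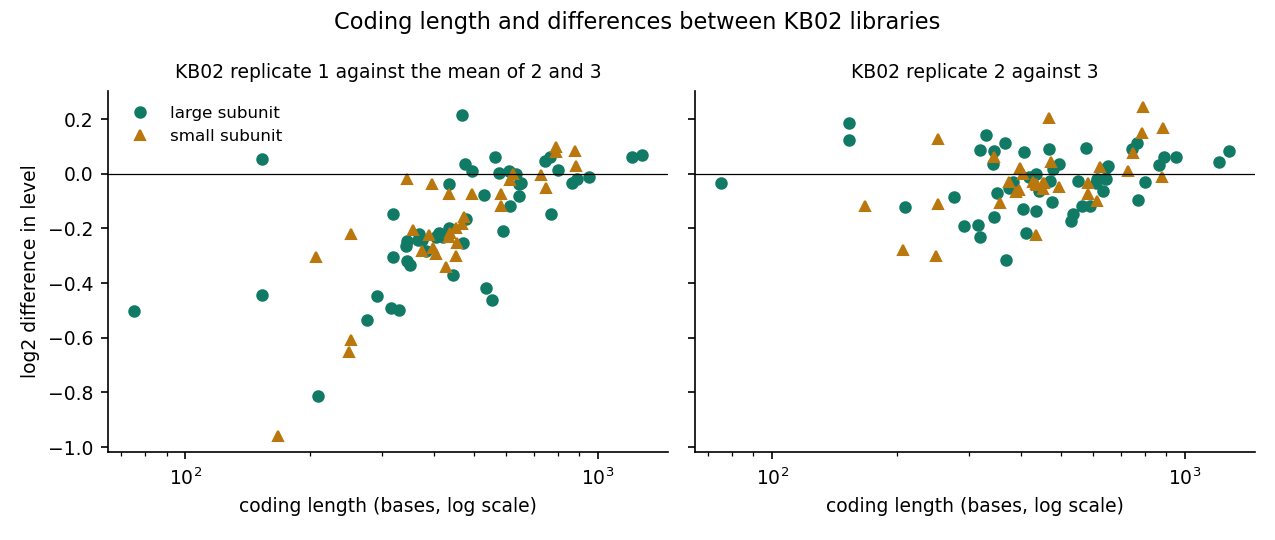
Log2 difference in level (vertical axis) against coding length in bases (log axis) for 83 ribosomal protein genes, circles for the large and triangles for the small subunit. On the left, KB02 replicate 1 lies below replicates 2 and 3 for short genes, down to -0.96 for RPS29. On the right, replicate 2 is set against replicate 3 on the same scale, with values from -0.32 for RPL35 to 0.24 for RPS3A.

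Sequences around the annotated transcription start are shown for genes that changed most, since the start decides whether an mRNA opens with a TOP tract. They come from RefSeq on GRCh38.p14, and 68 of the 85 genes matched that table. Each shows 15 bases before the start in lower case and 15 bases from the start on in capitals, on the strand of the gene. The genes lower with KB02 come before those higher with either compound.
RPL35A at chr3:197950175-197950204, plus strand: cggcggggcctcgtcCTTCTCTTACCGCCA
RPS27A at chr2:55231888-55231917, plus strand: taaggagtgacacacAAGACCCAGACTCTT
RPL17 at chr18:49492451-49492480, minus strand: cctctttccctaagcAGCCTGAGGTGAGTG
RPL22L1 at chr3:170870181-170870210, minus strand: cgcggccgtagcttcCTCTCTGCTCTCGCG
RPL12 at chr9:127451392-127451421, minus strand: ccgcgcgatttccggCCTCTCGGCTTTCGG
RPS12 at chr6:132814554-132814583, plus strand: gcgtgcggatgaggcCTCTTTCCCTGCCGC
RPL35 at chr9:124861943-124861972, minus strand: agccccgcctacttcCTCTTTCCCTCGGAG
RPS18 at chr6:33272060-33272089, plus strand: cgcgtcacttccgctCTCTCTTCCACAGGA
RPL29 at chr3:51995881-51995910, minus strand: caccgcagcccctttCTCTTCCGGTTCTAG
RPL26 at chr17:8383179-8383208, minus strand: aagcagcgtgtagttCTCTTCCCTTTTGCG
RPL4 at chr15:66504841-66504870, minus strand: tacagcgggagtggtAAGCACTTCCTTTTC
RPL11 at chr1:23691764-23691793, plus strand: cgcctcctggcccatAAGGCCCTCGGCCGG
All of these but RPS27A, RPL17, RPL4 and RPL11 start with C followed by at least 4 C or T bases, the form searched for as a TOP tract. Of the 4 matched genes lower with KB02, RPL35A and RPL22L1 have the tract at the annotated start and RPS27A and RPL17 do not. Within 10 bases of the start, RPS27A, RPL4 and RPL11 do have such a stretch. RPL17 has none within 10 bases, though its printed window opens with such a stretch.

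Of the 68 matched members, 43 (63.2%) had such a tract at the annotated start, against 4.07% of 35116 promoters in the table. Each member was counted by a single promoter, while the 35116 are all promoters listed, those of the members among them. Allowing the tract to begin within 10 bases of the start, 57 members (83.8%) and 33.5% of all promoters had it. In the promoter from 250 bases before to 50 after the start, on both strands, CCGGAAG (the core bound by ETS-family factors) was found in 33.8% of members and 10.3% of all promoters. GGGCGG (the GC box) was in 54.4% against 45%, AAGATGG in 13.2% against 5.84%, and TATAAA in 10.3% against 11.5%. A match is a description of the letters and not a measured binding site. CCGGAAG ends and AAGATGG begins with AAG, so matches of these motifs can overlap.

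In DMSO the ribosomal protein genes spanned a wide range of levels, most of it set by a few paralogs. The median was 907 CPM and the quartiles were 555 and 1154 CPM. Without the 8 paralogs whose symbols end in L, AL or L1, the other 77 genes lay between 273 and 2999 CPM, an 11-fold range. Per kilobase of transcript, RPL41, which encodes the shortest member at 75 coding bases, was highest at 5475 CPM per kb (5111, 5578 and 5735 in the 3 DMSO libraries), followed by RPS18 at 3307 and RPS27 at 3140. The ranges of RPS18 (3065 to 3605) and RPS27 (2977 to 3344) overlapped, so their order is not separated by the spread of the libraries. RPL3L, known from heart and skeletal muscle, was lowest at 0.202 CPM per kb, and RPL10L, known from testis, followed at 2.20. RPS27L was next lowest at 12.9, but the annotated transcript used for it is long (6434 bases for 252 coding bases), and per kilobase of coding sequence RPL7L1 took that place at 126. For 16 members the annotated transcript was at least 3 times as long as its coding sequence, which lowers their value per transcript length.

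The share of all counts that fell on ribosomal protein genes was higher in every treated library than in any DMSO library. It was 7.49%, 7.83% and 7.97% in DMSO, 8.73%, 9.53% and 9.64% in KB02, and 8.5%, 9.0% and 9.11% in KB05. The mean rose from 7.76% ± 0.25 (SD, n = 3) to 9.30% ± 0.50 with KB02 and 8.87% ± 0.33 with KB05, ratios of 1.20 and 1.14. Among counts of nuclear protein-coding genes alone, which leaves out the mitochondrial genes that took a smaller share in treated cells, the means were 9.72% ± 0.36, 11.4% ± 0.64 and 10.7% ± 0.37, ratios of 1.17 and 1.1. The lowest KB02 value was that of replicate 1, and without it the share stayed at 9.53% and 9.64%. These are shares of a library, so more ribosomal protein RNA and less of other RNA cannot be told apart, nor can fewer cells of a kind and less RNA per cell.

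Large subunit genes gave 1.5 to 1.51 times the counts of small subunit genes in DMSO. The ratio was 1.53 to 1.56 in KB02 and 1.52 to 1.54 in KB05, so neither treated group overlapped DMSO, while the KB02 and KB05 libraries overlapped each other. The size of this shift was small, a ratio of means of 1.02 for each compound against DMSO. KB02 replicate 1 had the highest ratio, 1.56, and KB02 replicates 2 and 3 had 1.53 and 1.54.

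**Figure D2:**
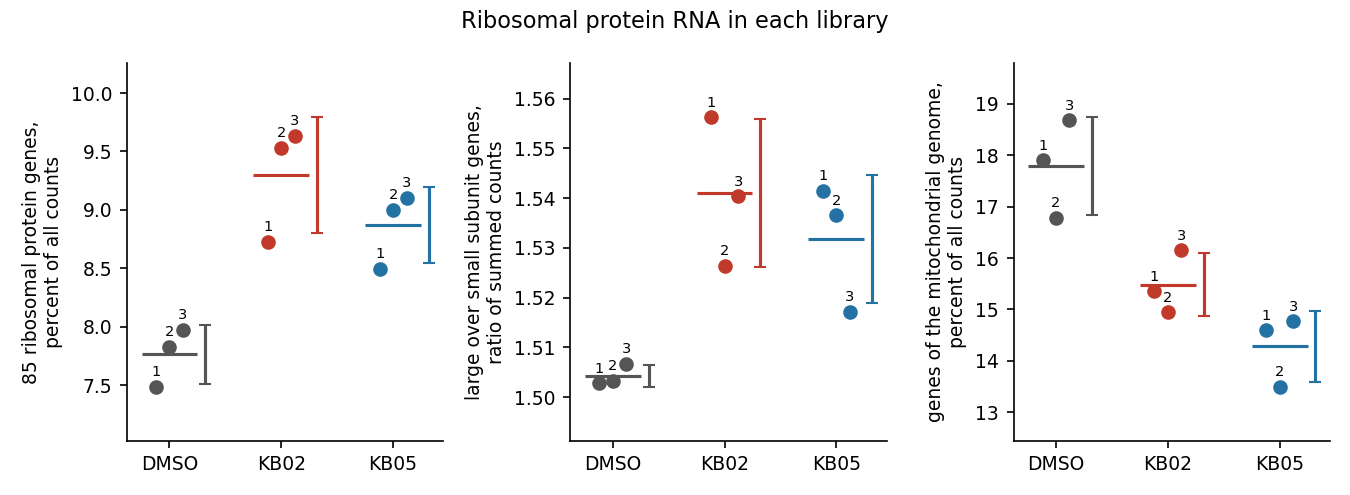
Percent of all counts on the 85 ribosomal protein genes (left), ratio of large to small subunit counts (middle) and percent of counts on genes of the mitochondrial genome (right) in DMSO, KB02 and KB05, with replicate numbers, group means (lines) and SD (bars beside the points); the vertical axes do not start at 0. The ribosomal protein share is at most 7.97% in DMSO and at least 8.5% in treated libraries.

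The comparison of KB02 with DMSO asks how the RNA of these genes stood 2 h after an hour with the compound. More members rose than fell, and the largest falls, in RPL30 and RPL35A, were larger than any called rise. At an adjusted p under 0.05, 27 of 85 rose and 5 fell. Over all 18379 genes tested, 22.8% were called higher and 23.3% lower. The median log2 fold change of the members was 0.11, beside 0.0016 over all genes, and 68 members changed by less than 1.25-fold. Of the large subunit genes 18 rose and 4 fell, with a median of 0.13. Of the small subunit genes 9 rose and 1 fell, with a median of 0.09, and the difference between subunits was not tested. Without KB02 replicate 1, 45 members rose and 3 fell, with medians of 0.25 (large) and 0.19 (small). Over all genes 4190 of 18774 rose in that fit, and 53.9% of calls were higher. The median of all genes moved to 0.05, and relative to it the members' median was 0.16. The KB02 fold changes given below without replicate 1 include this shift of all genes. The count of risen members was 16 without DMSO replicate 1 and 16 without KB02 replicate 3. In those fits 3898 of 18908 and 3918 of 18993 genes rose, a larger share than among the members. The count of fallen members was 3 without DMSO replicate 2 and 8 without KB02 replicate 3. With libraries scaled by size alone 54 rose and 3 fell, and 63.8% of calls over all genes were higher in place of 49.5%. That scaling raised the median of all genes to 0.13, and relative to it the members' median was 0.11 under both scalings.

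The largest falls with KB02 were in RPL30, RPL35A and RPS27A. RPL30, a large subunit protein whose yeast counterpart controls the splicing of its own pre-mRNA, lies on chromosome 8. It was at 351, 339 and 345 CPM in DMSO, 178, 229 and 216 in KB02, and 271, 304 and 300 in KB05. Every KB02 library lay below every KB05 library, and every KB05 library below DMSO. The log2 fold change with KB02 was -0.73 ± 0.08 (SE; adjusted p = 3.32e-09), and -0.58 without KB02 replicate 1. An antisense gene, RPL30-AS1, held 0.977 to 7.46 CPM, a small part of the RPL30 level, and reads of such pairs can be told apart only where strand is kept.

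RPL35A, one of the large subunit genes mutated in Diamond-Blackfan anaemia, spans 197949980 to 197956610 on chromosome 3 (GRCh38, GENCODE 29). Its levels were 466, 471 and 480 CPM in DMSO, 231, 343 and 311 in KB02, and 361, 403 and 359 in KB05. The 3 groups did not overlap, and replicate 1 was the lowest KB02 library. The fall with KB02 was -0.68 ± 0.12 on the log2 scale (adjusted p = 0.000518), and -0.48 without that replicate.

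RPS27A, which encodes ubiquitin fused to a small subunit protein, spans 55231903 to 55235853 on chromosome 2. It was at 538, 575 and 565 CPM in DMSO and at 386, 472 and 409.6 CPM in KB02, with no overlap. Its log2 fold change was -0.41 ± 0.07 (adjusted p = 2.42e-05), or -0.30 without KB02 replicate 1. The calls of RPL30, RPL35A and RPS27A with KB02 held in all 20 alternative analyses.

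RPL17 and RPL22L1 were also called lower with KB02, but both calls ended without KB02 replicate 1 and in other leave-one-out fits. For both genes every KB02 library lay below every DMSO library. RPL17, at the exit of the peptide tunnel, was at 622, 679 and 673 CPM in DMSO and at 419, 571 and 582 CPM in KB02, a log2 fold change of -0.33 ± 0.10 (adjusted p = 0.016). Without KB02 replicate 1 it was -0.14 (adjusted p = 0.141), and the call also ended without any 1 of the DMSO replicates. Its reads are shared by estimate with the read-through locus RPL17-C18orf32, and the 2 together gave 763, 799 and 793 CPM in DMSO against 486, 655 and 666 in KB02. RPL22L1, a paralog of RPL22, was at 205, 193 and 206 CPM in DMSO and at 156, 192 and 177 CPM in KB02. Its change of -0.20 ± 0.07 (adjusted p = 0.0207) became -0.08 (adjusted p = 0.445) without KB02 replicate 1, and the call also ended without DMSO replicate 2 or 3.

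Among the genes that rose with KB02, RPL12, at the base of the ribosomal stalk, rose most. It was at 896, 964 and 1067 CPM in DMSO and at 1363, 1371 and 1338 CPM in KB02, a log2 fold change of 0.48 ± 0.07 (adjusted p = 1.5e-06). RPL4, which lines the peptide exit tunnel, was at 1318, 1299.9 and 1356 CPM in DMSO and at 1809, 1775 and 1677 CPM in KB02, a change of 0.41 ± 0.07 (adjusted p = 7.43e-06). RPS12, of the small subunit head, was at 827, 834 and 903 CPM in DMSO and at 1100.2, 1108 and 1154 CPM in KB02, a change of 0.39 ± 0.07 (adjusted p = 3.63e-05). In none of these did a KB02 library reach down to DMSO. RPS18, RPL29 and RPL18 rose by 0.33 to 0.37, and these 6 genes kept their calls in all 20 alternatives. RPL35 rose by 0.34 ± 0.09 (adjusted p = 0.00404), a call that ended without DMSO replicate 1 (adjusted p = 0.0569).

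The comparison of KB05 with DMSO uses the same DMSO libraries. Of 85 members 35 rose and 2 fell, where 18.7% of all genes were higher and 21.1% lower. The median log2 fold change was 0.16, beside -0.0025 over all genes, and 75 members changed by less than 1.25-fold. Of the large subunit genes 23 rose and 2 fell (median 0.17), and of the small subunit genes 12 rose and none fell (median 0.14). The count of risen members was 19 without DMSO replicate 1, 18 without DMSO replicate 2, 21 without KB05 replicate 2 and 16 without KB05 replicate 3. Over all genes 3085 of 18908, 2898 of 18912, 2991 of 18982 and 2818 of 19031 rose in these fits. The count of fallen members was 0 without KB05 replicate 1, and 1 without any 1 of the DMSO replicates, without KB02 replicate 3 or without KB05 replicate 3. Which compound had more risen members depended on the setting. The counts with KB02 and KB05, 27 and 35 here, were 45 and 38 without KB02 replicate 1, 27 and 18 without DMSO replicate 2, and 21 and 16 without KB05 replicate 3. They were 31 and 30 with the RLE size factors of edgeR, 54 and 41 with libraries scaled by size alone, and 47 and 20 with offsets corrected for coding length. In all of these settings more of all genes rose with KB02 than with KB05. The all-gene counts were 4191 and 3434 here, 4190 and 3467 without KB02 replicate 1, and 4149 and 2898 without DMSO replicate 2. They were 4151 and 2818 without KB05 replicate 3, and 4309 and 3277 with RLE factors. Scaled by size alone they were 5733 and 3589, and with length correction 4883 and 3611.

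RPL35, near the tunnel exit, rose most with KB05, from 1066, 1104 and 1261 CPM to 1472, 1547 and 1676 CPM (log2 fold change 0.45 ± 0.09, adjusted p = 0.000372). RPS12 was at 1034, 1139.6 and 1233 CPM (0.41 ± 0.07, adjusted p = 3.02e-05), and RPL12 at 1249, 1268 and 1342 CPM (0.40 ± 0.07, adjusted p = 3.79e-05). For each of these genes all KB05 libraries lay above all DMSO libraries. RPS18 and RPL26 rose by 0.35 and 0.34, and these 5 genes kept their calls in all 20 alternatives.

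RPL36 rose by 0.39 ± 0.12 (adjusted p = 0.0271), a call that ended without any 1 of the DMSO or KB05 replicates. The 2 genes lower with KB05 were RPL35A, at -0.33 ± 0.12 (adjusted p = 0.0416), and RPL30, at -0.24 ± 0.08 (adjusted p = 0.0133). The RPL35A call held in 3 of 9 leave-one-out fits, and that of RPL30 in 8 of 9, ending without KB05 replicate 1 (adjusted p = 0.0911). RPS27A, at 499, 532 and 525 CPM with KB05, lay below every DMSO library, but its change of -0.11 ± 0.07 did not pass the test (adjusted p = 0.242).

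**Figure D3:**
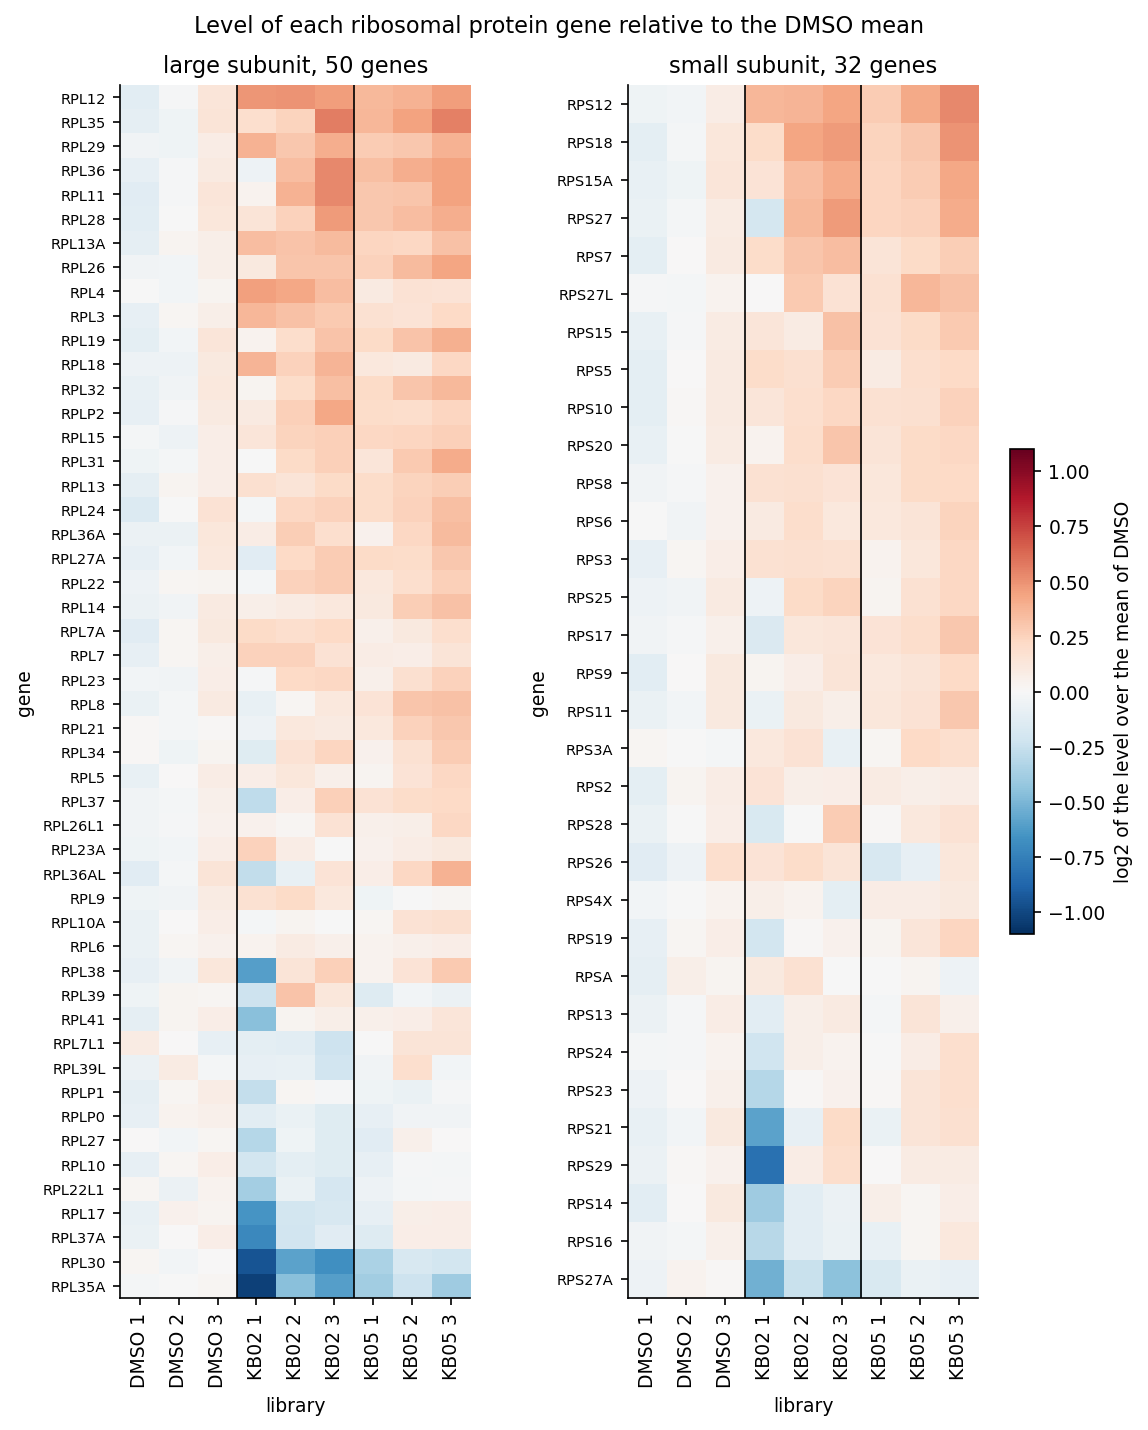
Log2 of the level of each gene over the mean of the 3 DMSO libraries (colour) in 9 libraries (columns), for 50 large and 32 small subunit genes ordered by their mean in treated libraries; RPL3L and RPL10L, with few counts, and 1 further gene are left out. RPL12, RPL35 and RPS12 are high in treated libraries, RPL30 and RPL35A are low, and KB02 replicate 1 is low in short genes such as RPS29 and RPL38.

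KB02 and KB05 were compared directly at the same dose and time, as 1 pair of compounds with p-values adjusted over all genes tested. Of the 85 members 8 were higher with KB05 than with KB02 and 4 lower, where 21.8% and 18.2% of all genes were. The median of the members was 0.05 and that of all genes 0.06, and 80 members differed by less than 1.25-fold. Without KB02 replicate 1, 2 members were higher and 5 lower with KB05, with a median of -0.04 beside 0.01 over all genes. In that fit 2987 of all 18774 genes were higher and 3327 lower. The sign of the members' median thus changed without that library. Whether this median lay below or above that of all genes depended on the setting. It was 0.11 beside 0.05 over all genes without KB02 replicate 3, and 0.10 beside 0.05 without KB05 replicate 1. The count of members higher with KB05 was 4 without DMSO replicate 2, 5 without KB02 replicate 2, 16 without KB02 replicate 3, 5 without KB05 replicate 2 and 3 without KB05 replicate 3. Over all genes 3339 of 18912, 3054 of 18830, 3632 of 18993, 3502 of 18982 and 3510 of 19031 were higher in these fits. The count of lower members was 2 without KB02 replicate 3, 1 without KB05 replicate 1 and 1 without KB05 replicate 2. Over all genes 3143 of 18993, 3032 of 18814 and 2967 of 18982 were lower there. With libraries scaled by size alone, 2 members were higher and 13 lower, and the share of calls over all genes that were higher moved from 54.4% to 37.4%.

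RPL30 and RPL4 differed between the compounds in all 20 alternatives. RPL30 was higher with KB05 by 0.49 ± 0.08 on the log2 scale (95% interval 0.33 to 0.65, adjusted p = 6.35e-06), and by 0.34 without KB02 replicate 1. RPL4 was at 1417, 1480 and 1466 CPM with KB05, below every KB02 library, a difference of -0.27 ± 0.07 (interval -0.41 to -0.13, adjusted p = 0.00152). It was above every DMSO library with KB05 too, where its change of 0.13 ± 0.07 did not pass the test (adjusted p = 0.11).

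RPS27A was higher with KB05 than with KB02 by 0.30 ± 0.07 (adjusted p = 0.0014), or by 0.18 (adjusted p = 0.0634) without KB02 replicate 1, and the call also ended with length-corrected offsets. The difference of RPL17, 0.35 ± 0.10 (adjusted p = 0.0139), was called in 14 of 20 alternatives and not without that library. That of RPL35A, 0.34 ± 0.12 (adjusted p = 0.0372), was called in 8 of 20 alternatives and in 1 of 9 leave-one-out fits. The calls of RPL8, RPS14 and RPS16 ended without KB02 replicate 1 too, and held in 4, 5 and 4 of 9 leave-one-out fits. RPL18, RPL9 and RPS26 were lower with KB05 by 0.19, 0.18 and 0.20, with adjusted p-values of 0.0351, 0.0355 and 0.0463, and each call ended in at least 3 of the 9 leave-one-out fits. RPS26 also lost its call when counts of its pseudogenes were added (adjusted p = 0.13).

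Members that rose with both compounds were mostly not separated between them. RPL12 differed by -0.08 (95% interval -0.22 to 0.07), and RPL35 and RPS12 were likewise not called. The interval of RPL12 holds differences as large as that of RPL18, so it does not show that the compounds act alike.

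**Figure D4:**
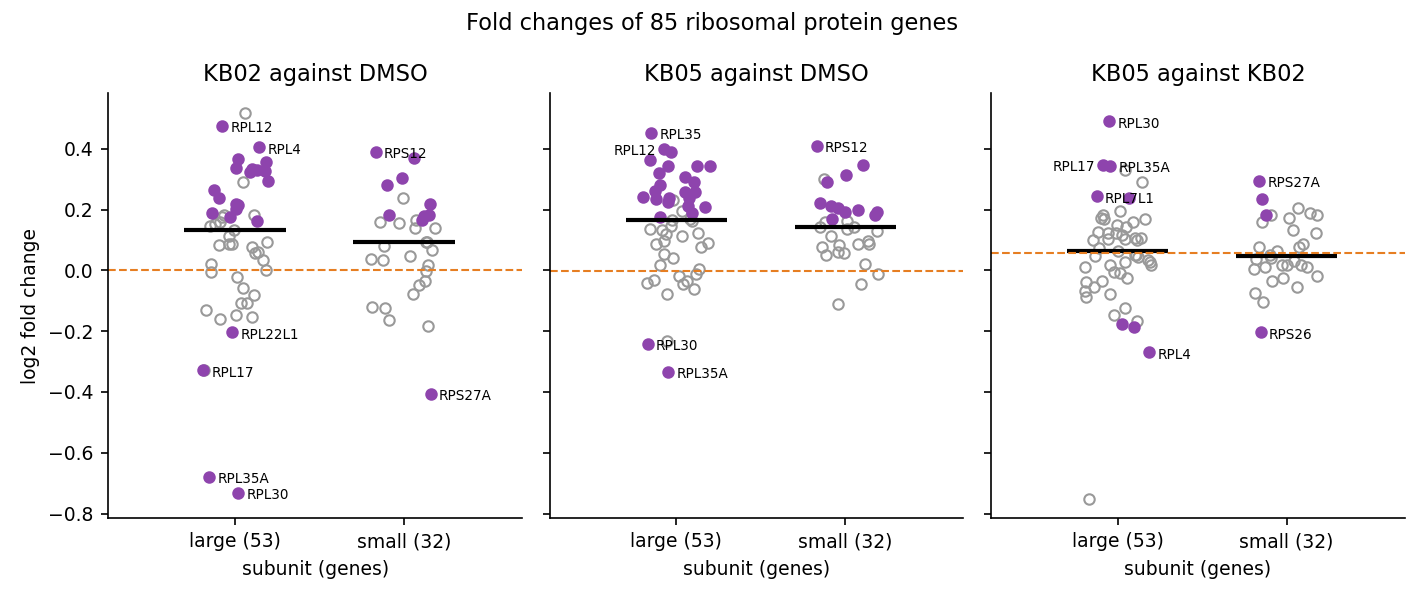
Log2 fold change (vertical axis) of 53 large and 32 small subunit genes in the 3 comparisons; filled points passed the test at an adjusted p under 0.05, open points did not, black lines are medians of the members and dashed lines the median of all genes. RPL30 and RPL35A lie lowest among filled points in KB02 against DMSO, and the open points at 0.52 and -0.75 are RPL3L, which had few counts.

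Apart from RPS27A, described above, genes of known special roles had log2 fold changes against DMSO between -0.11 and 0.34. RPL5 and RPL11 bind the ubiquitin ligase MDM2 together with 5S ribosomal RNA. RPL11 rose by 0.33 ± 0.11 with KB02 (adjusted p = 0.0216) and 0.34 ± 0.11 with KB05 (adjusted p = 0.0195), while RPL5 was at 0.08 ± 0.07 and 0.13 ± 0.07 and passed neither test. The difference between these genes was not tested. RPL11 was at 730, 785 and 872 CPM in DMSO, 814, 1034 and 1145 in KB02, and 975, 978 and 1075 in KB05. The KB02 range overlapped DMSO through its replicate 1, and the KB05 range did not overlap. The RPL11 call with KB02 ended without DMSO replicate 1 or KB02 replicate 3, and that with KB05 without DMSO replicate 1 or 2 or KB05 replicate 3.

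Of the stalk proteins that recruit elongation factors, RPLP2 rose by 0.26 ± 0.08 with KB02 and 0.21 ± 0.08 with KB05 (adjusted p = 0.00451 and 0.0278). RPLP0 was at -0.11 and -0.06 and RPLP1 at -0.08 and -0.05, none of which passed. The RPLP2 call ended without KB02 replicate 3 in the KB02 comparison, and was kept in 4 of 9 leave-one-out fits in the KB05 comparison. RPS6, the substrate of S6 kinase, rose by 0.17 ± 0.07 with KB05 (adjusted p = 0.0468), a call kept in 3 of 9 leave-one-out fits. Its value with KB02 was 0.14 ± 0.07 (adjusted p = 0.0972), and 0.20 (adjusted p = 0.025) without replicate 1. RPSA, also known as the laminin receptor, was at 0.09 and -0.01.

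**Figure D5:**
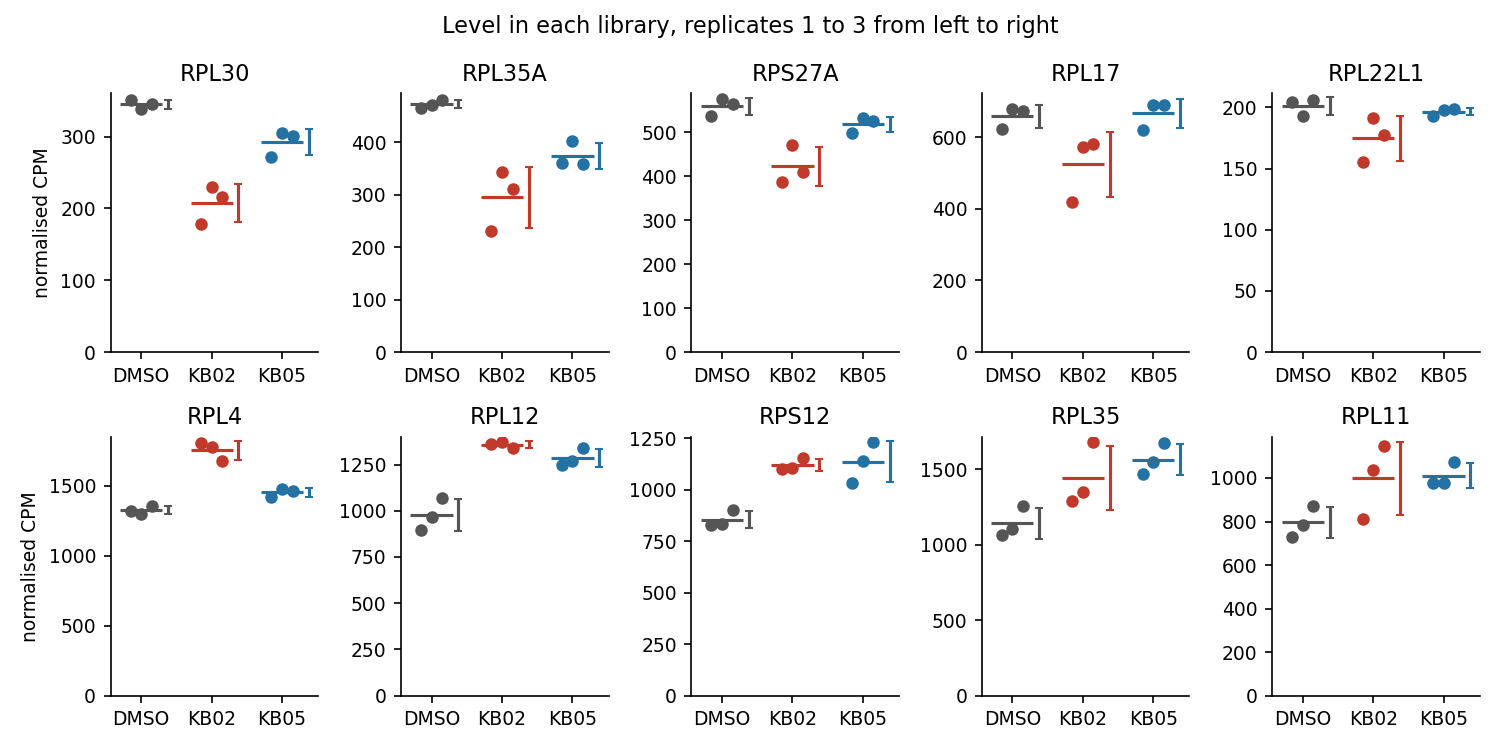
Level in normalised CPM (vertical axes, from 0) of 10 ribosomal protein genes in DMSO, KB02 and KB05, replicates 1 to 3 from left to right, with group means (lines) and SD (bars). RPL30, RPL35A and RPS27A are lower with KB02 and RPL4, RPL12 and RPS12 higher; for RPL17 and RPL22L1 the KB02 mean is pulled down by replicate 1.

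The 8 paralogs were less abundant than their parent genes. RPL22L1 made up 31.4% to 33.9% of the pair with RPL22 in DMSO, 26.1% to 28.0% in KB02 and 28.5% to 30.1% in KB05, and no treated library overlapped DMSO. RPL22 itself rose by 0.19 ± 0.07 with KB05 (adjusted p = 0.0449) and was at 0.18 ± 0.07 with KB02 (adjusted p = 0.054). RPL36AL made up 41.9% to 43.7% of its pair with RPL36A in DMSO, where 52 loci are annotated as RPL36A pseudogenes and held 38.4% to 44.3% of the RPL36A count. RPL36AL passed no test. RPL7L1, a ribosome biogenesis factor, was 7.51% to 9.28% of its pair with RPL7 in DMSO, 6.46% to 6.57% in KB02 and 7.86% to 8.67% in KB05. It was higher with KB05 than with KB02 by 0.24 ± 0.07 (adjusted p = 0.00684), a call that held in 18 of 20 alternatives, all 9 leave-one-out fits among them. It ended with libraries scaled by size alone and with length-corrected offsets (adjusted p up to 0.216).

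RPS27L was the only paralog called with KB05 against DMSO, at 82.0 to 85.3 CPM in DMSO and 93.7 to 107 CPM in KB05 (0.29 ± 0.08, adjusted p = 0.0027). RPL26L1, RPL39L and RPL10L passed no test in any comparison. RPL3L lay between 0.156 and 0.720 CPM, where 3 counts correspond to 0.129 to 0.195 CPM, and changes of it were not detectable at this depth. RPL10L lay between 1.16 and 2.48 CPM, RPL39L between 27.4 and 36.2 and RPL26L1 between 58.6 and 70.6.

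Features of the genes that the choice of members did not use were set beside the calls. Of 43 members with a TOP tract at the start 12 rose and 2 fell with KB02, and 19 rose and 1 fell with KB05. Of 25 matched members without it 9 rose and 2 fell with KB02, and 9 rose and none fell with KB05. The shares that rose with KB02, 27.9% with the tract and 36% without it, changed order without KB02 replicate 1 (58.1% and 48%). Over all genes 22.8% were called higher with KB02 and 18.7% with KB05. Of 23 members with CCGGAAG in the promoter 10 rose with KB02 and 14 with KB05, against 11 and 14 of 45 without it. Of 28 members with snoRNAs inside the gene (60 snoRNAs in all) 12 rose with KB02 and 13 with KB05, against 15 and 22 of 57 others. Without KB02 replicate 1, 17 of the 23 with CCGGAAG and 20 of the 45 without it rose with KB02, as did 17 of the 28 with snoRNAs and 28 of the 57 others. These differences between subsets were not tested. With KB02, none of the 11 members under 300 coding bases rose (median -0.02), but 6 of them rose without replicate 1 (median 0.19). The median of all genes was 0.0016 with that replicate and 0.05 without it.

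Other genes of the pathway were set beside the ribosomal protein genes, whose medians were 0.11 with KB02 and 0.16 with KB05. Over all genes, 22.8% rose and 23.3% fell with KB02, and 18.7% and 21.1% with KB05. Among 20 genes that control TOP mRNA translation and mTORC1, 8 rose and 3 fell with KB02 (40% and 15%, median 0.11) and 4 rose and 6 fell with KB05 (20% and 30%, median 0.07). The stress-induced mTORC1 inhibitors SESN2 and DDIT4 rose by 2.35 ± 0.08 and 1.95 ± 0.07 with KB02 (adjusted p = 5.62e-21 and 1.45e-19), and by 1.73 ± 0.08 and 2.52 ± 0.07 with KB05 (1.42e-17 and 1.94e-22). LARP1, the protein that binds TOP tracts, was named after its values were seen; it changed by -0.60 with KB02 and -0.53 with KB05 and passed both tests. Between the compounds 3 of these genes were higher with KB05 and 8 lower (15% and 40%), where 21.8% and 18.2% of all genes were. TSC1 at -1.12 ± 0.09 and MTOR at -1.03 ± 0.07 led the lower ones.

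Of 25 elongation factors and other genes known to carry a TOP tract, 6 rose and 3 fell with KB02 (24% and 12%, median 0.05) and 6 rose and 1 fell with KB05 (24% and 4%, median 0.07). The share that rose with KB02 was thus close to that over all genes. PABPC1, the poly(A)-binding protein, changed by -0.38 and -0.58, and EEF1D, an elongation factor subunit, rose by 0.44 and 0.33. Of 12 transcription factors known at ribosomal protein promoters 6 rose and 2 fell with KB02 (50% and 16.7%, median 0.21), and 1 rose and 2 fell with KB05 (8.33% and 16.7%, median -0.03). MYC, an activator of ribosome biogenesis genes, changed by -2.63 ± 0.08 with KB02 and -1.88 ± 0.08 with KB05 (adjusted p = 3.02e-21 and 7.87e-18).

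Of 25 chaperones and assembly partners of ribosomal proteins 14 rose and 1 fell with KB02 (56% and 4%, median 0.22), and 14 rose and none fell with KB05 (56% higher, median 0.25). RIOK2, a kinase of late small subunit maturation, rose by 0.88 ± 0.09 and 0.56 ± 0.09, EFL1, which releases an anti-association factor from the large subunit, by 0.68 ± 0.13 with KB02, and RRS1, which places the 5S particle, by 0.50 ± 0.07 with KB05. Of 7 genes around the 5S particle and MDM2, 5 rose and none fell with either compound (71.4% higher, medians 0.23 and 0.32), among them CDKN1A (0.64 ± 0.07 and 0.87 ± 0.07).

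Of 16 genes of ribosome quality control and hibernation 9 rose and none fell with KB02 (56.2% higher, median 0.29), while 5 rose and 5 fell with KB05 (31.2% each, median 0.02). IFRD1 rose by 1.41 ± 0.08 and 0.52 ± 0.08, LTN1, the ligase of stalled ribosomes, rose by 0.83 ± 0.10 with KB02, and GCN1, a sensor of collided ribosomes, fell by 0.73 ± 0.07 with KB05. In the direct comparison 1 of these genes was higher with KB05 and 9 lower, where 21.8% and 18.2% of all genes were, with a median of -0.34 beside 0.06 over all genes. The median of the ribosomal protein genes in the same comparison was 0.05. It was -0.04 beside 0.01 over all genes without KB02 replicate 1, and -0.10 beside 0.01 with length-corrected offsets. Without KB02 replicate 3 it was 0.11 beside 0.05.

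Beside these lists, 12 of 13 messages of the mitochondrial genome fell with each compound (medians -0.56 and -0.57). Of 8 tested RNAs from a list of nuclear, mitochondrial ribosomal and other non-coding RNAs, 1 fell with KB02 and 5 rose with KB05. The rises were led by the mitochondrial ribosomal RNA MT-RNR1 at 0.87 ± 0.07 and NEAT1 at 0.83 ± 0.12. Of 11 luminal prostate markers 2 rose and 7 fell with KB02 and 5 rose and 2 fell with KB05. Of 7 tested markers of other cell types 2 rose with KB02 (CD14, from at most 0.729 CPM to 7.04 to 11.8 CPM, and COL1A1) and 1 with KB05 (COL1A1). The part of these in the ribosomal protein results was not tested.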

How the data were processed

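RNA was measured in 9 libraries of 22Rv1 cells, 3 each with DMSO, KB02 and KB05. The authors deposited estimated counts, 1 value per gene and library and unscaled. Salmon 1.3.0, DESeq2 1.30.1 and the builds hg38 and GRCh38.p13 are named per the submitters' processing notes. Salmon splits reads of near-identical sequences by a likelihood model, so paralogs, pseudogenes and read-through loci share reads by estimate. No source used here says whether strand was kept.

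Counts were rounded and fitted in R 4.3.3 with edgeR 4.0.16: genes kept by filterByExpr with a minimum count of 10 (18379 genes), TMM factors, a robust quasi-likelihood fit to all 9 libraries with the 3 groups, and Benjamini-Hochberg adjustment over all genes at a threshold of 0.05. Every adjusted p comes from this test unless an alternative is named. The standard error (SE) is the log2 fold change divided by the square root of F. Levels are TMM-scaled CPM. Total counts ran from 15507100 to 21900700 per library, and floors of 3 counts cover counting error only. Replicates differed by more than sampling noise (chi-square per degree of freedom 4.28 to 9.75), so all were counted. The fit was tested on simulated data.

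The members and the gene lists were chosen with earlier results of these data known. Named members are the 8 largest called rises and falls in each comparison with a mean log2 CPM of at least 1, all paralogs, genes with special roles and the 3 highest and lowest per transcript length. Other lists are given by counts with their 2 largest called changes. A few genes that these rules name are counted but not reported here by name. Gene positions and lengths come from GENCODE 29. Alternatives were other scalings and filters, DESeq2 1.42.0, a replicate block, pseudogene sums, 2-group fits, each library left out and, added after seeing the data, offsets corrected for coding length.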

Additional observations from a re-analysis of the deposited data

How the results depend on the processing

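Of 78 results of single ribosomal protein genes that were recomputed, no called one changed direction in any alternative run. The median of the members in KB05 against KB02 did change sign, from 0.05 beside 0.06 over all genes. It was -0.04 beside 0.01 without KB02 replicate 1, and -0.10 beside 0.01 with length-corrected offsets. In other runs it lay above that of all genes, at 0.11 beside 0.05 without KB02 replicate 3 and 0.10 beside 0.05 without KB05 replicate 1. With libraries scaled by size alone it was -0.06, and the median of all genes was -0.06 too. Of the 1556 alternative values of the single-gene results, 1413 stayed on their side of the threshold. The rest were 108 lost calls and 35 gained ones. With libraries scaled by size alone, 54 members were higher and 3 lower with KB02, 1 was lower with KB05, and 2 were higher and 13 lower with KB05 than with KB02. Upper-quartile factors left 1 lower with KB05. Without the filter on low counts 9 members were lower with KB02 and 15 higher with KB05 than with KB02, and with a minimum count of 30 the latter were 14. A fit of KB02 and KB05 alone called 5 higher. Offsets corrected for coding length, chosen after seeing the data, gave 47 higher with KB02 and 20 with KB05, and 1 higher and 17 lower in KB05 against KB02. Over all 18379 genes the same counts were 4883, 3611, 3457 and 3420. That correction also removes differences between groups that go with length.

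Leaving out 1 library at a time, members higher and lower ran from 16 to 45 and 3 to 8 with KB02, from 16 to 38 and 0 to 2 with KB05, and from 2 to 16 and 1 to 5 in KB05 against KB02. Where 16 members were higher with KB02, without DMSO replicate 1 or KB02 replicate 3, their share was below that of all genes. Correlations of deviations lay between -0.04 and 0.08 for same-numbered libraries and between -0.07 and 0.04 for differently numbered ones. The highest were DMSO replicate 3 with KB02 replicate 3 and KB02 replicate 2 with KB05 replicate 2, at 0.08 each. These low values do not settle whether libraries pair by replicate number, in general or for the ribosomal protein genes. The share of counts on these genes rose from replicate 1 to 3 in each group. It was 7.49%, 7.83% and 7.97% in DMSO, 8.73%, 9.53% and 9.64% in KB02, and 8.5%, 9.0% and 9.11% in KB05. Pairing within these genes was not tested. A replicate block gave 36 higher and 10 lower with KB02, 42 and 2 with KB05, and 18 and 5 in KB05 against KB02. Over all 18379 genes the same counts were 4242 and 4358, 3525 and 3951, and 4119 and 3399. The cause of these shifts was not tested. Depth limits RPL3L and RPL10L, the only members under 100 counts in some library, and most other changes are under 1.25-fold.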
